A study of Mus musculus with 36 samples.

Results

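The step of the mouse heart from embryonic day 13.5 (E13.5) to E14.5 was read from 6 of the 36 arrays of a developmental series, the 3 arrays of E14.5 against the 3 of E13.5, taken by their stage label. All mice were OF1, an outbred stock, and the labels name no allele and no treatment for any of them. At both stages 1 array was made from the heart of a female pup, 1 from that of a male pup and 1 from mixed male and female hearts, whose number is not given. The other 30 arrays, again 3 a stage, hold the remaining embryonic days (E10.5 up to E19.5) and adult hearts, young and old. Whole hearts were measured, so fewer cells of a type and less RNA per cell cannot be told apart.

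Around this time the septa between the chambers close, the endocardial cushions are remodelled into valve leaflets and coronary vessels spread through the ventricular wall. The cushions are swellings of a matrix rich in hyaluronan and versican, filled by mesenchyme that derives largely from the endocardium. The blood in the chambers changes as well: primitive red cells from the yolk sac, which carry embryonic globins, are replaced by definitive red cells from the fetal liver. Cardiomyocytes go on adding sarcomeres, membrane anchors and the proteins that store and release calcium.

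The deposited table gives 45101 probe sets, each a cluster of oligonucleotides for the same transcript, as log2 intensities, so that a difference of 1 is 2-fold. The labels and the study's methods name heart as the tissue, while the extraction protocol in the labels names liver. *Myh7*, the β-myosin heavy chain of the embryonic ventricle, lay between 13.57 and 13.67 on the 6 arrays. Of the 10 liver genes listed, 1 passed the expression limit at any stage, and that gene (*Ahsg*) lay between 3.25 and 3.93 here. The female and male labels of both stages fit their arrays: *Xist*, the RNA of the inactive X chromosome, was at 11.05 and 10.82 on the female arrays and at 2.00 and 2.29 on the male arrays, and the mixed arrays showed *Xist* together with the Y-linked *Ddx3y*. Among the arrays of the days on either side, all 3 of E12.5 showed both, whatever their label, and so did the E15.5 male array.

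The mixed arrays stood apart. Over all probe sets the nearest array to the E13.5 mixed array was E14.5 female, at a Euclidean distance of 64.0, and the nearest to the E14.5 mixed array was E13.5 male, at 60.4. Among these 6 arrays the mixed arrays were the farthest pair, at 93.5, while female and male lay 50.9 apart at E13.5 and 53.0 apart at E14.5. The hybridization controls, bacterial transcripts added at fixed amounts, were ordered alike. Their mean level was 10.57 on the E13.5 female, 10.71 on the E13.5 male and 10.60 on the E14.5 mixed array, and 11.10 on the E14.5 female, 11.14 on the E14.5 male and 11.28 on the E13.5 mixed array. The poly-A controls, added before labelling, were at 7.75 on the E13.5 mixed and 6.87 on the E14.5 mixed array, beside 6.83 and 6.97 on the other E13.5 arrays and 7.65 and 7.81 on the other E14.5 arrays. *Gapdh*, read in the middle of its transcript, was at 8.66 and 9.94 on the mixed arrays of E13.5 and E14.5, beside 9.66 and 9.75, and 8.92 and 8.70. By profile and by these levels each mixed array thus went against its stage label. The difference between the 3′ and the 5′ probe sets of *Gapdh* was not ordered so. It was 4.66, 4.79 and 4.65 on the female, male and mixed arrays of E13.5 and 4.46, 4.83 and 4.29 on those of E14.5. All 13 genes called below moved the same way in the mixed pair as in the female and male pairs. The mixed arrays took part in these calls. Whether the labels of the mixed arrays were crossed was not tested; if they were, every mixed difference below would have the opposite sign. Labels were kept as given, and the counts of calls, the called genes that are described and most list medians are given with and without both mixed arrays. The part of the control level in any result was not tested beyond a fit that holds it as a covariate.

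A gene was called when the limma fit of 12 stage means over all 36 arrays gave an adjusted p under 0.05 and its mean exceeded 5 at 1 stage or more. Each gene was read from its probe set with the highest overall mean, which gave 11317 expressed genes. Of these, 6 were called higher at E14.5 (0.053%) and 7 lower (0.0619%), 9 of them by more than 2-fold. The genes that fell were *Hbb-bh1*, *Apela*, *Hapln1*, *Mdk*, *Gata5*, *9430047L24Rik* and *Col13a1*, and among those that rose were *Aoc3*, *Fabp7*, *Ablim3*, *4632404M16Rik* and *St8sia4*. In all 13 the 3 arrays of E14.5 lay on 1 side of the 3 of E13.5. The calls were made from these same values, so this lack of overlap adds no support to them. Of all expressed genes, 759 (6.71%) lay wholly above and 610 (5.39%) wholly below. The counts depended on single arrays and on the fit. Without the E13.5 female, E13.5 male, E14.5 male or E14.5 mixed array, *Hbb-bh1* was the 1 gene called lower, and the other 6 were lost. With the 6 arrays alone 2 genes were called higher and 0 lower, and with array weights 170 and 241.

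**Figure D1:**
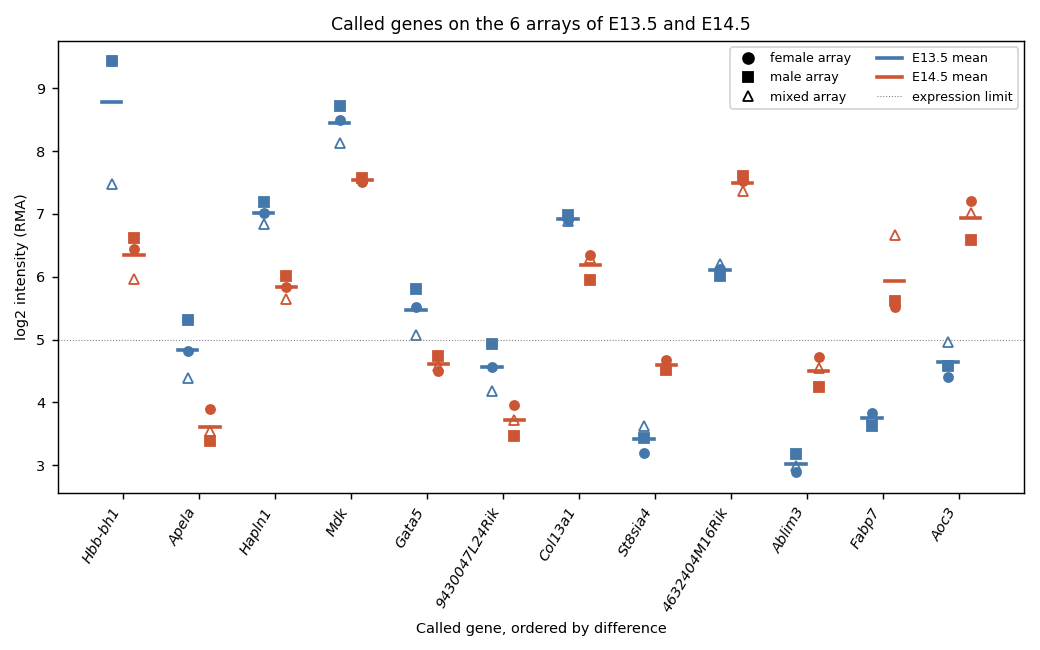
Log2 intensity (RMA) of 12 of the 13 called genes on each of the 6 arrays, E13.5 in blue and E14.5 in red, with circles for female, squares for male and open triangles for mixed arrays and a bar at each mean of 3. The 3 arrays of a stage do not overlap with those of the other in any of the genes shown; for *Hbb-bh1* the E13.5 mixed array, at 7.47, lies between the other E13.5 arrays and those of E14.5.

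Without both mixed arrays, 11 genes were called higher (0.0972%) and 16 lower (0.141%). Of the 13 genes, 10 were among them, and *Hapln1*, *Col13a1* and *Fabp7* were not. With the level of the hybridization controls as a covariate, 26 genes were called (0.23%), all 13 among them.

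The largest decrease was in an embryonic globin. *Hbb-bh1*, a β-like globin of primitive red cells, read 9.43, 9.43 and 7.47 on the female, male and mixed arrays of E13.5 and 6.44, 6.61 and 5.97 on those of E14.5. The E14.5 arrays all lay lower, and the mixed array was the lowest of its stage on both days. The difference was −2.44 (SE 0.30, adjusted p = 4.1e-05, limma), a 5.42-fold decrease, and −2.91 (SE 0.22, adjusted p = 4.2e-09) without the mixed arrays. A further pair of probe sets of the gene gave −2.44 and −2.05. The mean had been 12.99 at E10.5 and 11.01 at E12.5, and reached 3.97 at E15.5, below the expression limit.

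*Hba-x*, the ζ-like partner chain of the α-globin cluster, read 8.19, 8.70 and 6.77 at E13.5 and 6.50, 7.10 and 6.29 at E14.5. The stages overlapped here, since the E13.5 mixed array lay below the E14.5 male array. The difference of −1.26 (SE 0.31) did not pass the test with all arrays (adjusted p = 0.20) and was −1.65 (SE 0.28, adjusted p = 0.0066) without the mixed arrays.

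*Hbb-y*, the εy-globin, read 13.77, 13.73 and 13.38 at E13.5 and 12.79, 13.12 and 12.51 at E14.5, close to the highest value on any array, 14.04. All E14.5 arrays lay lower, but the difference of −0.82 (SE 0.37) did not pass the test (adjusted p = 1). Another probe set of *Hbb-y*, which was chosen after its values were seen, read 12.28, 12.39 and 10.39 at E13.5 and 9.37, 10.23 and 9.13 at E14.5. That difference was −2.11 (SE 0.40, adjusted p = 0.021), so the size of the decrease of *Hbb-y* depended on the probe set. Globin genes of the same cluster are related in sequence. Probe sets with an x in their suffix, among them those read for *Hbb-bh1* and *Hbb-y*, are marked by the maker as open to related transcripts.

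The sequence of the 250 bases before the start is shown for *Hbb-y* and *Hba-x*. These genes lie in different globin clusters and both pointed down on all 3 pairs of arrays. Neither was called with all arrays when read from its probe set with the highest mean. *Hbb-bh1*, which was called, had no entry among the promoter sequences used and is not shown. The sequences are those of RefSeq (GRCm38.p6), 5′ to 3′ on the strand of the gene, and capitals mark the GATA box (GATAA), the CACC box (CACCC), the CCAAT box and a TATA-like run (ATAAA) on either strand. *Hbb-y* is on the minus strand of chromosome 7 (chr7:103853208-103853457) and *Hba-x* on the plus strand of chromosome 11 (chr11:32276350-32276599).
Hbb-y: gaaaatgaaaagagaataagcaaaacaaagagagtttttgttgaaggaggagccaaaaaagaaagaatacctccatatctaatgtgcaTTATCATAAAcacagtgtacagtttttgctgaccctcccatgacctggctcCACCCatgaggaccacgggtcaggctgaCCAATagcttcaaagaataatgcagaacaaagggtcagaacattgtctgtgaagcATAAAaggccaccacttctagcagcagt
Hba-x: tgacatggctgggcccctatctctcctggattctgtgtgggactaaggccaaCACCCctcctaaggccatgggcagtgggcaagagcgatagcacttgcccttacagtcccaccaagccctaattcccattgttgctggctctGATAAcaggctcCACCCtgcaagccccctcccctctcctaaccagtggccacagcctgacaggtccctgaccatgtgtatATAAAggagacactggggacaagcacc

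Both windows hold a GATA box, a CACC box and a TATA-like run close to the start, which begins 28 bases before it in *Hbb-y* and 27 in *Hba-x*. The GATA box of *Hbb-y* lies on the other strand, directly before a further TATA-like run. The CCAAT box occurs in *Hbb-y*, 83 bases before the start, and its letters are not in the window of *Hba-x*. Among all 32851 promoter windows of this length, 22.6% hold the GATA box, 52.0% the CACC box, 33.8% the CCAAT box and 37.3% the TATA-like run. The GATA box, the CACC box and the TATA-like run occur together in 6.07%, at any position and with or without a CCAAT box. These matches describe letters and not bound factors.

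Among other red cell genes no call was made. Of the 13 genes listed as adult globins and erythroid genes, 10 were matched to the array and 4 passed the expression limit. No adult globin was among these 4, and 0 of them were called. An adult globin may be missing here because it was unmatched or because it lay below the limit. The level of adult globins is therefore not given by these values. *Ahsp*, the chaperone of free α-globin, read 7.92, 8.06 and 6.92 at E13.5 and 7.53, 7.97 and 7.05 at E14.5, and the erythroid anion exchanger *Slc4a1* read 6.94, 7.40 and 6.63 and then 6.58, 7.45 and 5.57. The stages overlapped for both. On each day the mixed array was the lowest of its stage for all 3 embryonic globins and for *Ahsp*, *Slc4a1* and *Alas2*, the first enzyme of erythroid heme synthesis. For the transferrin receptor *Tfrc*, the last of the 4, it was the lowest at E13.5 (6.84) and the highest at E14.5 (7.63). The part of the mixed arrays in the globin differences was not tested beyond the fits without them.

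Genes of the endocardial cushions and valves lay lower as a group, though the list was chosen with earlier results of these data known. Of the 18 genes listed, 15 were expressed, and all 15 had a lower mean at E14.5, beside 5755 of 11317 expressed genes. In 11 of them the 3 arrays of E14.5 lay wholly below those of E13.5, beside 5.39% of all expressed genes. The median difference was −0.54, against 0 over all expressed genes, and it was −0.53 between the female, −0.69 between the male and −0.43 between the mixed arrays, and −0.47 without these. Only *Hapln1* was called.

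*Hapln1*, the link protein that fixes versican to hyaluronan, read 7.02, 7.19 and 6.84 at E13.5 and 5.84, 6.01 and 5.65 at E14.5. The difference was −1.19 (SE 0.23, adjusted p = 0.028), a 2.27-fold decrease, and it was nearly equal in the female (−1.18), male (−1.18) and mixed (−1.19) pairs. Without the mixed arrays it was −1.18 with an adjusted p of 0.12, so the size held and the call did not. Of the other probe sets of *Hapln1*, those with adjusted p values of 0.00099 and 0.021 gave −1.38 and −0.99, and the last gave −0.58 (adjusted p = 1). The stage mean went from 9.27 at E10.5 to 4.60 at E15.5, with E13.5 and E14.5 in the middle of the slope.

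The partners of *Hapln1* in the cushion matrix lay lower too, without passing the test. *Vcan*, versican itself, read 11.03, 11.04 and 10.54 at E13.5 and 10.30, 10.27 and 10.18 at E14.5 (difference −0.61, adjusted p = 1). *Has2*, the hyaluronan synthase of the cushions, read 5.83, 5.71 and 6.42 and then 5.30, 5.56 and 5.11 (−0.66, adjusted p = 0.96), with most of its difference in the mixed pair. *Fbln2*, an extracellular glycoprotein that binds versican, read 9.16, 9.16 and 8.44 and then 8.09, 7.76 and 8.0. Its difference was −0.97 (SE 0.22, adjusted p = 0.11) with all arrays and −1.23 (SE 0.25, adjusted p = 0.032) without the mixed arrays.

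Transcription factors and ligands of the cushions also lay lower. *Twist1*, a factor of cushion mesenchyme, read 7.16, 7.22 and 6.77 at E13.5 and 6.17, 5.76 and 6.16 at E14.5 (−1.02, SE 0.22, adjusted p = 0.10), and passed with the control level as a covariate (−0.99, adjusted p = 0.033). *Sox9* differed by −0.54, and the ligands *Bmp2*, *Bmp4* and *Tgfb2*, which act in the transition of endocardium to mesenchyme, by −0.56, −0.54 and −0.44. None of these was called, and in each the stages did not overlap. *Postn*, periostin of the maturing valve, lay between 11.62 and 12.14 on the 6 arrays and differed by −0.22 (adjusted p = 1).

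**Figure D2:**
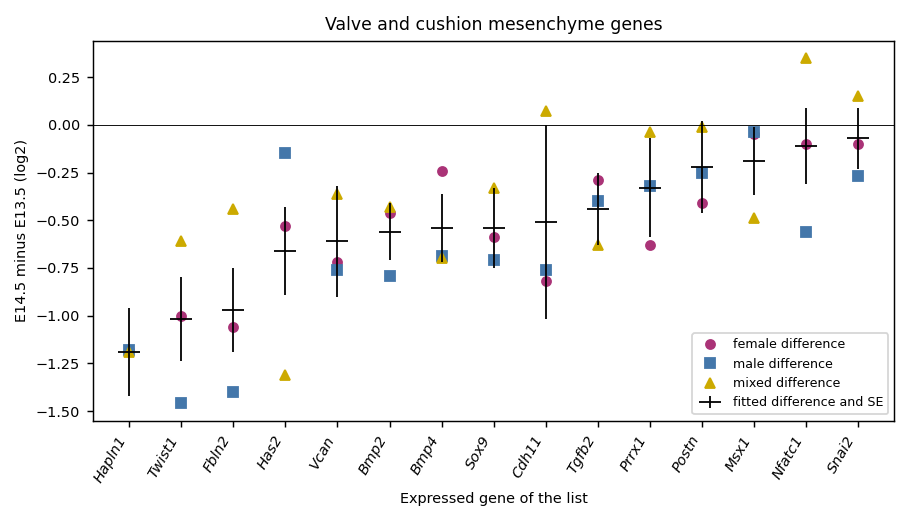
E14.5 minus E13.5 (log2) of the 15 expressed genes listed for valve and cushion mesenchyme, for the female, male and mixed pair of arrays, with the fitted difference and its SE in black. All 15 fitted differences lie below 0, from −1.19 for *Hapln1* to −0.07 for *Snai2*; 12 of the genes are below 0 in all 3 pairs.

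*Gata5*, a zinc finger factor of the early endocardium, read 5.52, 5.81 and 5.07 at E13.5 and 4.50, 4.73 and 4.58 at E14.5. It fell by 0.86 on the log2 scale (SE 0.16, adjusted p = 0.021) and by 1.05 without the mixed arrays (adjusted p = 0.011). Its other probe set, at means of 3.97 and 4.07, gave 0.11 (adjusted p = 1) and so did not share the decrease. Of the 20 cardiac transcription factors listed, all expressed, *Gata5* alone was called, beside 0.0619% of all expressed genes called lower. A further 5 had all E14.5 arrays below those of E13.5, beside 5.39% of all expressed genes. Among them *Isl1*, a factor of second heart field progenitors, differed by −0.92 (adjusted p = 0.52; −0.74 without the mixed arrays), and *Gata6*, *Tbx2* and *Tbx3* by −0.33 to −0.41. *Irx4* was the one with all arrays above (0.13), and the median over the 20 was −0.10 (−0.18 without the mixed arrays).

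*Apela* encodes a secreted peptide that binds the apelin receptor. It read 4.82, 5.31 and 4.39 at E13.5 and 3.89, 3.38 and 3.55 at E14.5, with all E14.5 arrays lower. The difference was −1.24 (SE 0.23, adjusted p = 0.021), a 2.36-fold decrease, and −1.44 (adjusted p = 0.019) without the mixed arrays. Its stage mean was above the expression limit until E12.5, at 6.34, and 3.31 at E15.5. The receptor moved the other way: *Aplnr* read 8.74, 8.68 and 9.54 at E13.5 and 10.00, 9.86 and 9.65 at E14.5, a difference of 0.85 (SE 0.23) that did not pass the test (adjusted p = 0.40). Without the mixed arrays that difference was 1.22 (adjusted p = 0.058). *Apln*, the other ligand of the receptor, differed by 0.11.

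*Mdk*, the heparin-binding growth factor midkine, read 8.50, 8.72 and 8.13 at E13.5 and 7.50, 7.57 and 7.57 at E14.5. It fell by 0.91 (SE 0.17, adjusted p = 0.023), and by 1.08 (adjusted p = 0.020) without the mixed arrays. Its call was lost when any 1 of the 6 arrays was left out, except E13.5 mixed. *Col13a1*, a collagen that spans the cell membrane, read 6.91, 6.98 and 6.88 and then 6.34, 5.94 and 6.30, and its difference of −0.73 (SE 0.15, adjusted p = 0.042) was −0.81 with an adjusted p of 0.084 without the mixed arrays. Both had been level on the days before: the means of *Mdk* at E10.5 to E13.5 were 8.49, 8.67, 8.39 and 8.45, and those of *Col13a1* were 6.98, 7.11, 6.91 and 6.92. At E19.5 they were 5.54 and 4.71. The transcript *9430047L24Rik* read 4.56, 4.93 and 4.18 and then 3.96, 3.47 and 3.72 (difference −0.84, adjusted p = 0.028; −1.03 and 0.014 without the mixed arrays), all below the expression limit.

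*Aoc3* showed the clearest increase. It encodes an amine oxidase of the cell surface found on vascular smooth muscle and endothelium, and it read 4.40, 4.58 and 4.96 at E13.5 and 7.20, 6.58 and 7.01 at E14.5. The lowest E14.5 array thus lay well above the highest of E13.5. The difference was 2.29 (SE 0.22, adjusted p = 6.1e-07), a 4.89-fold increase, and 2.40 (adjusted p = 8e-06) without the mixed arrays. The means were 3.40 at E12.5 and 7.11 at E15.5, so that most of the way between them fell on this day. Later means stayed between 6.96 and 7.98.

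*Fabp7*, a fatty acid binding protein best known from brain, read 3.83, 3.62 and 3.79 at E13.5 and 5.51, 5.61 and 6.66 at E14.5. The stages were well apart, and the mixed array of E14.5 was the highest. The difference of 2.18 (SE 0.36, adjusted p = 0.0031) was 1.83 with an adjusted p of 0.074 without the mixed arrays. The mean had been 3.46 at E12.5, stayed between 5.45 and 6.49 until E19.5 and was 3.62 in both adult groups.

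*Ablim3*, an actin-binding LIM protein, read 2.89, 3.17 and 2.99 at E13.5 and 4.72, 4.25 and 4.54 at E14.5 (1.49, SE 0.20, adjusted p = 0.00013; 1.45 and 0.0066 without the mixed arrays). Until E13.5 its means had stayed at 2.71 to 3.02, from E15.5 they lay above the expression limit, and in old adults the mean was 7.64.

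The transcript *4632404M16Rik* read 6.13, 6.01 and 6.20 at E13.5 and 7.52, 7.60 and 7.37 at E14.5, a difference of 1.39 (SE 0.19, adjusted p = 0.00032) with little spread within a stage. *St8sia4*, an enzyme that adds polysialic acid to cell adhesion molecules, read 3.20, 3.43 and 3.63 and then 4.68, 4.51 and 4.60 (1.18, SE 0.17, adjusted p = 4e-04). Both were called without the mixed arrays too, at 1.49 and 1.28. Of the 6 genes that rose, 5 had an E13.5 mean of 5 or less, so that the step took them from below the expression limit, and *St8sia4* and *Ablim3* were still below it at E14.5.

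**Figure D3:**
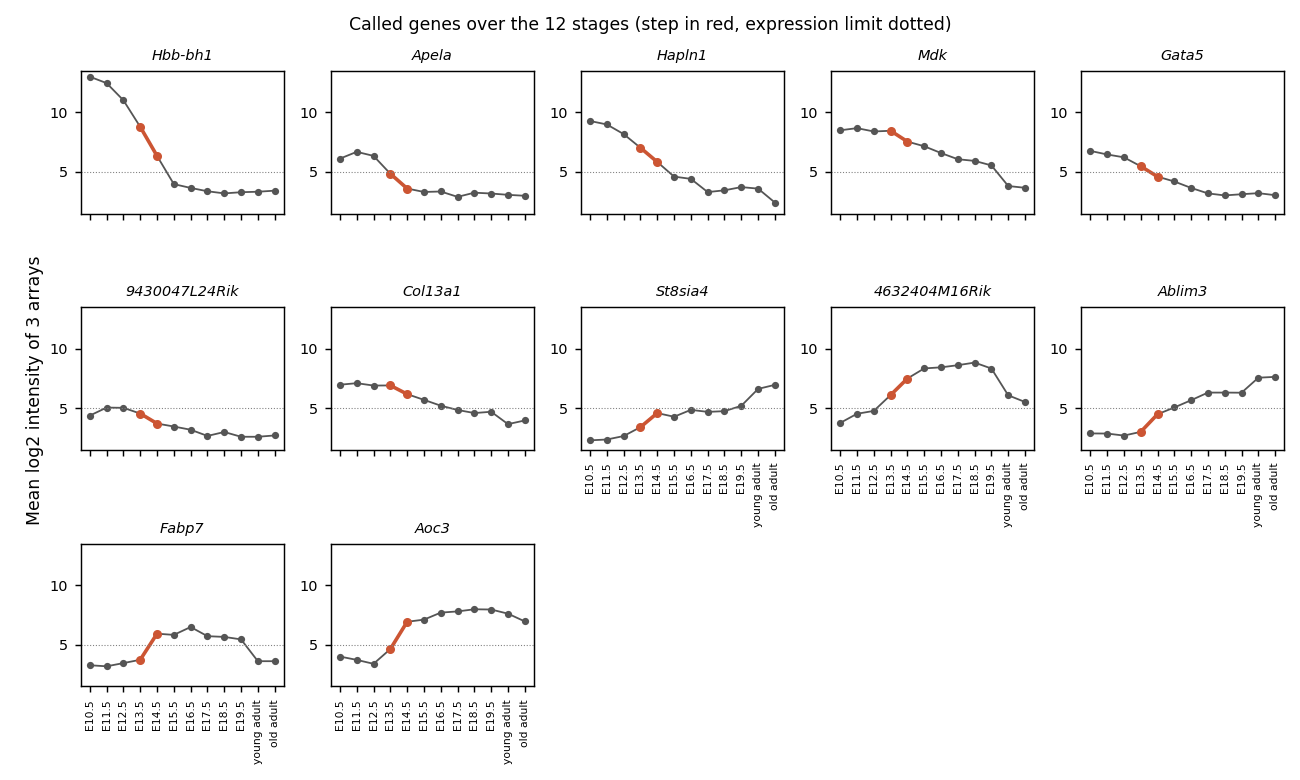
Mean log2 intensity of 3 arrays at each of the 12 stages for 12 of the 13 called genes, with the step from E13.5 to E14.5 in red and the expression limit of 5 dotted. *Hbb-bh1* and *Hapln1* decline over several days, *Mdk* and *Col13a1* are level until E13.5, *Fabp7* stays between 5.45 and 6.49 from E14.5 until E19.5, and *Aoc3* goes on from 6.93 to 7.96.

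In the lists of other muscle genes 0 members were called. Over the 15 calcium handling genes the median was 0.21, and 0.09 without the mixed arrays. *Casq2*, calsequestrin, which stores calcium in the sarcoplasmic reticulum, read 9.27, 9.20 and 9.01 at E13.5 and 9.85, 10.01 and 10.30 at E14.5. Its difference of 0.89 (SE 0.22) had an adjusted p of 0.20, and of 0.022 with the control level as a covariate, and it was 0.69 (adjusted p = 0.60) without the mixed arrays. *Ckm*, muscle creatine kinase, differed by 1.31 (adjusted p = 0.37; 0.032 with the covariate; 0.63 without the mixed arrays), and *Myom2*, a protein of the M band, by 1.31 (adjusted p = 0.32). Among 19 sarcomere genes the median was 0.07, but −0.23 and −0.33 between the female and the male arrays and 0.54 between the mixed arrays, and −0.29 without these. Among 12 expressed ion channel genes 5 moved up in all 3 pairs, beside 1213 of 11317 expressed genes. All 12 means were higher, beside 5562 of all expressed genes, with a median of 0.26. That median was 0.03, 0.27 and 0.56 in the female, male and mixed pairs and 0.13 without the mixed arrays. *Kcnj8* and *Kcnip2*, of the cardiac potassium channels, differed by 0.86 and 0.73 (adjusted p = 0.11 and 0.17; 0.084 and 0.30 without the mixed arrays).

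In fatty acid oxidation a few genes stood out from a list with little shift. Of 20 expressed genes of fatty acid oxidation, 0 were called and 5 had all E14.5 arrays above E13.5, beside 6.71% of all expressed genes. *Acsl1*, which activates fatty acids, read 6.79, 6.60 and 6.27 and then 7.36, 7.47 and 7.43 (0.87, adjusted p = 0.22; 0.0012 with the control level as a covariate; 0.57 without the mixed arrays). *Ppara* and its coactivator *Ppargc1a*, regulators of the pathway, differed by 0.84 and 0.44 (adjusted p = 0.31 and 0.49). The median of the list was 0.14, and it was −0.12, −0.13 and 0.72 in the female, male and mixed pairs and −0.11 without the mixed arrays. In oxidative phosphorylation the same medians were −0.08, −0.02 and 0.88, with 0.28 over all arrays and −0.05 without the mixed arrays. *Cox8b* and *Cox7a1*, muscle forms of cytochrome oxidase subunits, had the largest differences of that list, 1.18 and 1.01 (adjusted p = 1 for both), with E14.5 above on all arrays. Without the mixed arrays these were 0.68 and 0.57, and the mixed pair alone gave 2.18 and 1.90.

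Of 20 endothelial genes, 0 were called, while 9 had all E14.5 arrays above E13.5, beside 6.71% of all expressed genes. The median was 0.20, and 0.09 without the mixed arrays. These 9 were *Fabp4*, *Aplnr*, *Sox17*, *Cd36*, *Cldn5*, *Esam*, *Kdr*, *Egfl7* and *Apln*. *Fabp4*, the fatty acid binding protein of capillaries, read 9.05, 9.0 and 9.47 at E13.5 and 10.15, 10.09 and 10.60 at E14.5 (1.10, SE 0.42, adjusted p = 1; 1.09 without the mixed arrays). *Sox17*, a factor of arterial endothelium, read 6.10, 6.06 and 6.22 and then 6.96, 6.73 and 6.98 (0.77, adjusted p = 0.55, and 0.77 without the mixed arrays). Both *Fabp4* and *Cd36*, the fatty acid transporter, were called through another probe set, picked out after its values were seen. These sets gave 1.17 (adjusted p = 0.030, limma) and 1.07 (adjusted p = 0.012). Their means were below the expression limit at both stages, 3.25 and 4.42 for *Fabp4* and 3.5 and 4.57 for *Cd36*. Further sets gave 1.15 and 0.25 for *Fabp4* and 0.99 for *Cd36*, none of them past the test. The general endothelial genes *Cdh5* and *Pecam1* differed by 0.21 and 0.20, *Tek* by −0.46 and *Plvap* by −0.43, all with overlap.

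A few further genes were called through a probe set other than the one with the highest mean and were picked out after their values were seen. *Igf2bp1*, an oncofetal RNA-binding protein, read 6.53, 6.47 and 6.11 at E13.5 and 5.37, 5.61 and 5.49 at E14.5 on 1 probe set (−0.88, adjusted p = 0.012). The set with the highest mean gave −0.07, and the remaining sets gave −0.33 and −0.26, none of them past the test. *Nudt4*, a phosphohydrolase, read 8.30, 8.53 and 7.53 and then 6.67, 6.49 and 6.57 (−1.55, adjusted p = 2.4e-05), against −0.05 on the set with the highest mean. *Krt8*, a keratin of simple epithelia, fell by 0.89 on 1 set (adjusted p = 0.021) and differed by −0.87 and −0.69 on the others (adjusted p = 0.21 and 0.43). *Hmga2*, an oncofetal chromatin protein, was not called through any probe set. On its set with the highest mean it read 8.01, 8.04 and 7.56 and then 7.01, 6.84 and 6.97, with no overlap (−0.93, adjusted p = 0.21).

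Across genes, the female and the male pair gave similar differences and the mixed pair did not. As a description over 11317 expressed genes, which share arrays and are no replicates, r was 0.65 (Pearson; rho 0.62, Spearman) between the female and the male differences, and −0.33 and −0.35 between either of these and the mixed differences. Of the genes higher at E14.5 in the mean of female and male, 40.5% were also higher in the mixed pair, and of those lower, 24.7% were lower. The genes called without the mixed arrays can be read against these shares, since the mixed arrays took no part in the call: 10 of the 11 called higher and 9 of the 16 called lower kept their direction in the mixed pair. Over 27 lists with at least 3 expressed genes, the mixed median was opposite in sign to both other medians in 15, among them mitosis (−0.19 and −0.28 against 0.46), cytosolic ribosome (−0.22 and −0.37 against 0.46) and trabecular myocardium (−0.70 and −0.55 against 0.89). *Nppa*, the natriuretic peptide of atria and trabeculae, is an example: it read 11.71, 11.97 and 9.51 at E13.5 and 9.91, 10.01 and 11.65 at E14.5.

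**Figure D4:**
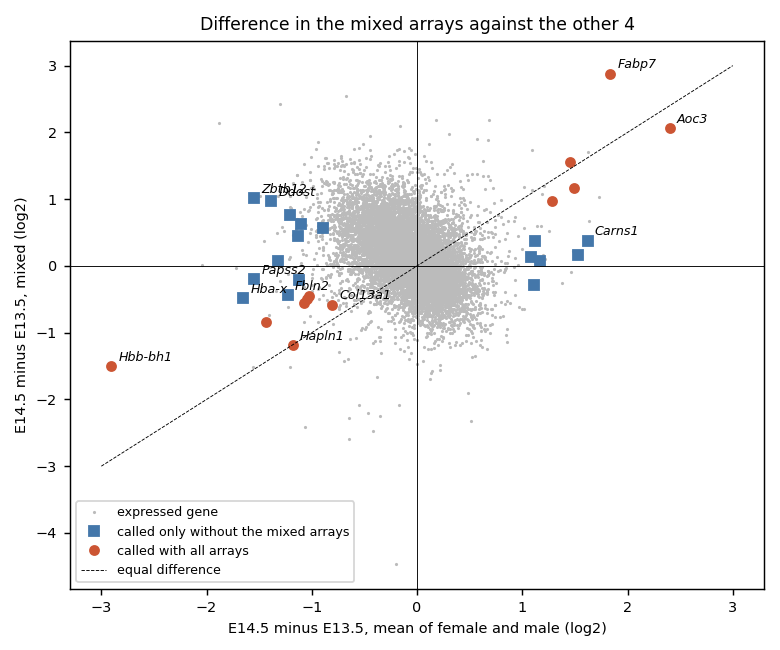
E14.5 minus E13.5 (log2) in the mixed pair of arrays against the mean of the female and male pairs, with expressed genes in grey, 12 of the genes called with all arrays in red and those called only without the mixed arrays in blue. The cloud slopes down, with r of −0.33 and −0.35 between the mixed and the other differences, and the 12 red genes lie where both differences share their sign, as their lack of overlap requires.

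The genes gained without the mixed arrays were read from fewer values and named after these were seen. *Papss2*, which makes the sulfate donor for proteoglycans, read 7.55 and 7.59 on the female and male arrays of E13.5 and 6.10 and 5.94 on those of E14.5, a decrease of 1.55 (SE 0.26, adjusted p = 0.0066). Its mixed arrays read 6.50 and 6.30, in the same direction. *Carns1*, carnosine synthase, read 6.30 and 6.28 and then 7.92 and 7.89 (1.62, adjusted p = 0.017), and its mixed arrays 6.94 and 7.33. *Unc5c*, a netrin receptor, fell by 1.12 (adjusted p = 0.024) with the mixed pair also lower.

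The immediate early genes, which respond to stress within minutes, differed between the arrays of E13.5. Of 19 listed genes 17 had a lower mean at E14.5, beside 5755 of 11317 expressed genes, and 0 were called. The median of −0.64 was −0.11 in the female, −0.60 in the male and −1.16 in the mixed pair, and −0.42 without this pair. *Fos* read 9.14, 9.17 and 11.33 at E13.5 and 8.73, 7.45 and 8.91 at E14.5. The E13.5 mixed array was the highest of the 6 for this gene, for *Jun* (8.23) and for *Zfp36* (8.33).

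**Figure D5:**
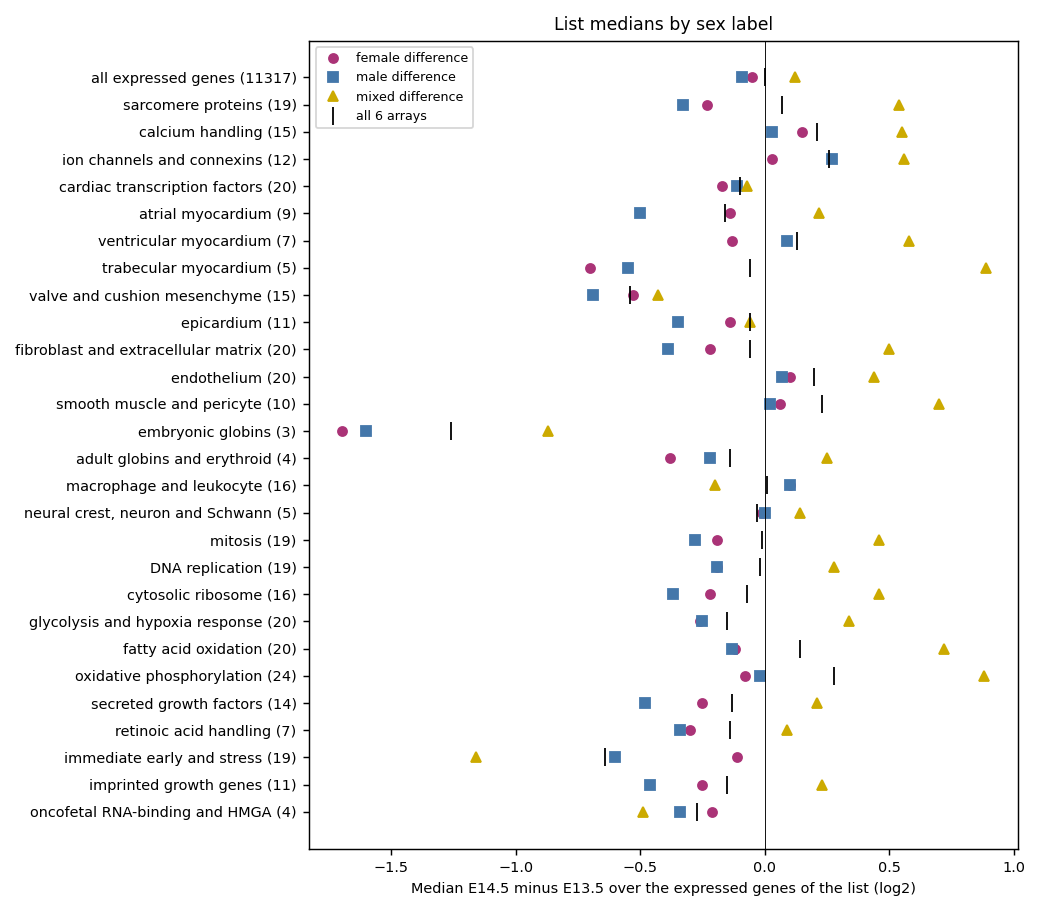
Median E14.5 minus E13.5 (log2) over the expressed genes of each list with at least 3 of them (their number in brackets, the sex genes left out), for the female, male and mixed pair of arrays and for all 6. Embryonic globins and valve and cushion mesenchyme lie below 0 in all 3 pairs, while for lists such as oxidative phosphorylation the mixed median lies on the other side of 0 from the other medians.

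In the other lists 0 members were called. The median of 20 fibroblast and matrix genes was −0.06 with all arrays, but −0.22, −0.39 and 0.50 in the female, male and mixed pairs and −0.28 without the mixed arrays; *Dpt*, dermatopontin, differed by 0.98 (adjusted p = 0.63) and *Col6a1* by 0.45, with E14.5 above on all arrays. With all arrays and without the mixed arrays, the medians were −0.06 and −0.16 for 11 epicardial genes, 0.23 and 0.11 for 10 genes of smooth muscle and pericytes, 0.01 and 0.19 for 16 macrophage and leukocyte genes and −0.15 and −0.39 for 11 imprinted growth genes. *Rgs5* of pericytes differed by 0.75 (adjusted p = 0.65; 0.48 without the mixed arrays). Of the imprinted genes, the cell cycle inhibitor *Cdkn1c* differed by −0.67 (adjusted p = 0.58). All 11 epicardial genes had a lower mean at E14.5, beside 5755 of 11317 expressed genes, and in 3 of them the stages did not overlap. Over all 32 lists, 359 different genes were expressed and 3 were called, *Hbb-bh1*, *Hapln1* and *Gata5*. All 3 were lower, beside 0.0619% of all expressed genes called lower.

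The 13 genes were then read from E12.5 to E15.5, on arrays outside the 6 of the step. These arrays had entered the spread shared by all stages in the fit that made the calls, so this reading is not independent of them. All 13 passed the test in the same direction from E12.5 to E15.5, beside 14.1% of expressed genes called higher and 22.1% called lower over these 3 days. *Hbb-bh1* differed by −7.04, *Hapln1* by −3.57 and *Apela* by −3.03, and *Aoc3* by 3.72 and *4632404M16Rik* by 3.57. The count was also 13 with the control level as a covariate and without each of the 6 arrays of E12.5 and E15.5 in turn, the E15.5 male array among them. In the valve and cushion list, 12 of 15 genes were called lower over these days and 0 higher, with a median of −1.39. Such a decline was not particular to this list. Called lower were also 12 of 16 cytosolic ribosome genes, 12 of 19 DNA replication genes and 8 of 11 epicardial genes, with 0 higher in each. Ion channel genes went the other way, with 6 of 12 higher and 0 lower. The difference between the 3′ and the 5′ probe sets of *Gapdh* was 4.37, 2.93 and 3.22 on the E12.5 arrays and 4.58, 5.06 and 4.31 on the E15.5 arrays. Its part in these results was not tested.

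Few genes were called at this step beside some others. With the same limits, 133 genes rose and 112 fell from E12.5 to E13.5, 4 rose and 4 fell from E14.5 to E15.5, and 105 rose and 225 fell from E18.5 to E19.5. The steps from E15.5 to E18.5 gave fewer, with 0 and 1, 3 and 1, and 0 and 0 genes higher and lower. With the control level as a covariate the counts were 50 and 16 from E12.5 to E13.5, 17 and 9 at this step, and 385 and 437 from E18.5 to E19.5. Neighbouring steps share arrays. A contrast of the step with the mean of the steps before and after it called 0 genes (0%, limma). Of 11317 expressed genes, 226 had an unadjusted p under 0.05 in this contrast, and the lowest adjusted p was 0.78. No gene was thus shown to change at a rate particular to this day. Without the mixed arrays that contrast called *Zbtb12* (−2.57, adjusted p = 0.031), whose mixed pair moved opposite to the other pairs.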

How the data were processed

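Hearts of OF1 mice at 12 stages were measured on 1-colour Affymetrix whole-genome arrays (36 arrays, 45101 probe sets). The deposited values are log2 intensities made by the authors by RMA, the robust multi-array average, which subtracts background, equalizes quantiles and summarizes the probes of a set. This brings arrays to nearly the same distribution (medians of the deposited columns 4.00 to 4.20) and so can hide a change in total RNA. The labels also name Affymetrix Expression Console and Partek 6.6, without a role. For the RNA the labels name an RNeasy Plus kit and liver, the methods a miRNeasy kit and heart. Values were used as deposited. Precision is limited by the number of arrays, 3 a stage, which the methods call biological replicates.

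In R 4.3.3 with limma 3.58.1, 12 stage means were fitted to all 36 arrays and all probe sets with moderated variances, and p-values were adjusted by Benjamini-Hochberg over all probe sets. A gene was called at an adjusted p under 0.05 with a mean above 5 in at least 1 stage, and read from its probe set with the highest mean over the 36 arrays. Of 20701 gene IDs, 18342 were found in the RefSeq table of GRCm38.p6, 2358 kept the symbol of the file and 1 had none; 6937 probe sets carry no gene ID. The study's own limits, made for embryo against adult, were run as an alternative. Named are called genes with a mean over the 6 arrays above 5 and no overlap (7 of 13; those named of the other 6 were chosen after their values were seen), called list members, and list members as examples. Counts and medians cover all genes, and 1 called gene and 1 list member are not reported here. Members and lists were chosen with earlier results of these data known. Alternatives concerned the mixed arrays, each array left out, the sex label as a block, the 6 arrays alone, scaling, filters, limits, array weights, the hybridization control level (mean of 18 control probe sets) as a covariate and other probe sets. The procedure was tested on simulated data.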

Additional observations from a re-analysis of the deposited data

Results flagged for a closer look

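Of the 27 genes called without the mixed arrays, 8 moved one way between the female and between the male arrays and the other way between the mixed arrays; the difference between the pairs was not tested. The mixed pair, E14.5 minus E13.5 on the log2 scale, gave 1.01 for *Zbtb12*, 0.97 for *Ddost*, 0.76 for *1110032F04Rik*, 0.63 for *Edil3*, 0.57 for *Mn1*, 0.45 for *Tmem178* and 0.08 for *Tmem26*, all of which fell without the mixed arrays, and −0.29 for *Gm7072*, which rose. *Ddost*, a subunit of the enzyme that attaches sugar chains to proteins, read 8.93, 8.68 and 7.50 at E13.5 and 7.49, 7.35 and 8.48 at E14.5, so that each mixed array lay among the arrays of the other stage. With all arrays its difference was −0.60 (adjusted p = 1, limma).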

How the results depend on the processing

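All 13 called genes kept their direction in each of 15 refits. *Aoc3* and *4632404M16Rik* were called in all 15, *Hbb-bh1*, *Ablim3* and *St8sia4* in 14 (not with the 6 arrays alone), and *Col13a1* in 4. The counts moved more. Genes called higher, 6 with all arrays, were 11 without both mixed arrays, 2 with the 6 arrays alone, 170 with array weights, 17 with the control level as a covariate, 11 with that covariate and without the mixed arrays, 2 with a mean over the 6 arrays above 5, and 1 at the study's limits (adjusted p under 1e-05 and a log2 difference above 2). Genes called lower, 7 with all arrays, were 16 without both mixed arrays, 0 with the 6 arrays alone, 241 with weights, 12 with the covariate and without the mixed arrays, 0 at the study's limits, 1 at an adjusted p under 0.01, 3 with a log2 difference above 1 as well, and 11 by any expressed probe set. With the 6 arrays alone, 0 genes were called lower by limma, and 383 were lower at an unadjusted p under 0.05. In the main fit 564 of 11317 expressed genes were under that unadjusted limit, in either direction. Some genes pass such a limit without any change, so these counts are no calls. Leaving out 1 of the 6 arrays gave 6 to 17 genes higher and 1 to 13 lower. The count of genes lower was 1, *Hbb-bh1*, without the female or the male array of E13.5 or the male or the mixed array of E14.5, 3 without the E14.5 female array and 13, beside 17 higher, without the E13.5 mixed array; *Fabp7* was lost without the E14.5 mixed array. List members called higher, 0 with all arrays, were 2 after another quantile normalization, 14 with weights, 3 with the covariate, 2 with the covariate and without the mixed arrays, and 0 to 2 with 1 array left out; those called lower, 3 with all arrays, were 5 after centring on the median, 23 with weights, 0 with the 6 arrays alone and 1 to 6 with 1 array left out. The contrast with the neighbouring steps called 1 gene without the mixed arrays and 0 otherwise, also with each of 12 arrays left out.

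Whether the sex labels pair the samples could not be decided from deviations from the stage means. Within a stage these deviations cancel out, so a mixed array that stands apart shifts those of the female and male arrays together. The deviations correlated at −0.27 for female, −0.28 for male and −0.59 for mixed. Between E13.5 female and E14.5 male r was −0.38, as it was between E13.5 male and E14.5 female. Each mixed array gave 0.44 with the female and with the male array of the other stage. With the sex label as a replicate block over 30 arrays, 9 genes were called higher and 6 lower, 11 of the 13 among them; list members called higher were 2 (*Fabp4*, *Myom2*). Read from its probe set with the highest mean, *Igf2bp1* turned from −0.07 to 0.16 without the mixed arrays, 0.07 with the covariate as well, and 0 and 0.09 without the E13.5 or the E14.5 mixed array (−0.23 to 0.09 with 1 array left out); *Nudt4* turned from −0.05 to 0.04 with the covariate, and to 0.16, 0.11 and 0.14 without the E13.5 male, the E14.5 female and the E14.5 male array (−0.42 to 0.16 with 1 array left out). The cause of these shifts was not tested. Added after the data were seen were the covariate without the mixed arrays, weights and covariate for lists, and the covariate and each array left out for the contrast with the neighbouring steps and for E15.5 minus E12.5.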

Other observations

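A probe set without a gene ID, singled out after its values were seen, read 4.88, 4.77 and 4.89 on the female, male and mixed arrays of E13.5 and 5.92, 5.95 and 6.08 on those of E14.5 (difference 1.14, SE 0.19, adjusted p = 0.0067, limma). Its stages were apart in every pair of arrays. Called higher with the hybridization control level as a covariate, in addition, were *AU021895*, *Carns1*, *Casq2*, *Ckm*, *Acsl1*, *Septin4*, *Gimap8*, *Asb11*, *Rflnb*, *Kcnip2* and *Dhrs7c*. Of these *Dhrs7c* read 2.88, 3.02 and 3.51 at E13.5 and 4.12, 4.20 and 4.70 at E14.5 (1.20, adjusted p = 0.092 without the covariate and 0.037 with it).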
